A study of Mus musculus with 60 samples.

Results

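The 10 genes described here make, carry and sense bile acids, the cholesterol-derived detergents of bile. They were taken by name from the 54532 genes of the expression table and are 5 enzymes of synthesis (Cyp7a1, Cyp8b1, Cyp27a1, Cyp7b1 and Cyp46a1), 3 transporters (Abcb11, Slc10a1 and Slco1b2) and 2 receptors (Nr1h4 and Nr0b2). The question was how liver levels of these genes differed between obese mice given sulforaphane (SFN), an isothiocyanate from cruciferous vegetables, and obese mice given vehicle.

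All mice were male wild-type C57BL/6 animals fed a high-fat diet from 12 weeks of age for 16 to 20 weeks, and were about 28 weeks old at treatment. Mice 1 to 5 received vehicle and mice 6 to 10 received SFN at 5 mg/kg, injected into the peritoneum daily for 1 week. Liver, hypothalamus, inguinal (iWAT) and epididymal (eWAT) white adipose tissue, brown adipose tissue (BAT) and skeletal muscle of the same 10 mice were sequenced as poly(A) RNA, 60 libraries in all. Values are FPKM as deposited, which are read counts scaled by gene length and by 1 factor per library, so levels of different genes can be compared.

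Bile acids are made from cholesterol in hepatocytes. The classic pathway starts with Cyp7a1 and the alternative pathway with Cyp27a1, and Cyp8b1 decides how much of the product is cholic acid. Bile acids are exported into bile, return from the gut through the portal blood, are taken up again by hepatocytes, and repress their own synthesis through the receptor Nr1h4 and its target gene Nr0b2.

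The promoters of Cyp8b1 and Cyp46a1, the members whose liver levels fell, are shown as the 250 bases before the RefSeq start of the gene (GRCm38.p6, gene strand, 5′ to 3′). Capitals mark the TATA box motif TATAAA or the nuclear receptor half-site AGGTCA, each searched on both strands.
Cyp8b1 (chr9:121916306-121916555, minus strand): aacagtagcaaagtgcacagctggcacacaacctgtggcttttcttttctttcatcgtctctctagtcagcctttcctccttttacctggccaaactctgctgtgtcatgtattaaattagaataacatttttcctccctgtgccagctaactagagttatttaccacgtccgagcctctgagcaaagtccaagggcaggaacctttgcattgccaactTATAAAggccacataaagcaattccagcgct
Cyp46a1 (chr12:108334066-108334315, plus strand): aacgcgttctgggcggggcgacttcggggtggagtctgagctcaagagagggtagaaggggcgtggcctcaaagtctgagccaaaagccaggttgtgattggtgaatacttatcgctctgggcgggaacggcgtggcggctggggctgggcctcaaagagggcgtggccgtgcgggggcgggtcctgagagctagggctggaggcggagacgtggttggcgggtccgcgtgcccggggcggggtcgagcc
The Cyp8b1 window held 1 TATA box motif, a GC content of 44.8% and 4 CpG dinucleotides. The Cyp46a1 window held neither motif, a GC content of 67.6% and 23 CpG dinucleotides. Over the 32851 RefSeq windows of this length 12.4% held the TATA box motif and 14.0% the half-site, and the median window had a GC content of 52.4% and 6 CpG dinucleotides. The promoter table matched 8 of the 10 members, in 9 windows, of which 4 held a TATA box motif and 4 a half-site.

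Recovered depth was 14802638 to 25258292 reads per library, with a median of 16949841. Tissue labels matched their defining transcripts: Alb (albumin) was 24487 to 43012 FPKM in liver and at most 10.9 elsewhere, and Snap25, a neuronal gene, was 128 to 177 FPKM in the hypothalamus and at most 0.208 elsewhere. Adipoq, the adipocyte hormone adiponectin, was 137 to 1931 FPKM in the fat depots, and Ucp1, the uncoupling protein of brown fat, was 2201 to 4410 FPKM in BAT. Acta1, skeletal muscle actin, was at least 26556 FPKM in muscle and also reached 1453 FPKM in BAT and 538 FPKM in iWAT. In liver, SFN mouse 7 was the lowest or the highest of the 10 animals for 7 of the 10 members, so values without it are given below for those 7. How often mouse 7 was lowest or highest over all liver genes was not counted.

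In liver, Cyp46a1 and Cyp8b1 fell after SFN, and no member rose past the test. The fold change of SFN over vehicle, fitted on the log scale, was 0.282 for Cyp46a1 and 0.653 for Cyp8b1. Slc10a1, the main bile acid uptake carrier, had a fitted fold change of 0.601 and lay just outside the threshold, and Cyp7a1 had one of 2.09 with overlapping groups. The test was limma on log2(FPKM + 0.1), two-sided, with the adjusted p (Benjamini-Hochberg) over 13388 liver genes. All 10 members passed the filter on low values in liver, and 2 were called lower and 0 higher at an adjusted p under 0.05. Of all genes tested 6.19% were called lower and 6.89% higher. The median log2 fold change was −0.17 over the members and −0.02 over all genes, 90% of which lay between −0.70 and 0.59. At an unadjusted p under 0.05 there were 4 members and 4052 genes.

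**Figure D1:**
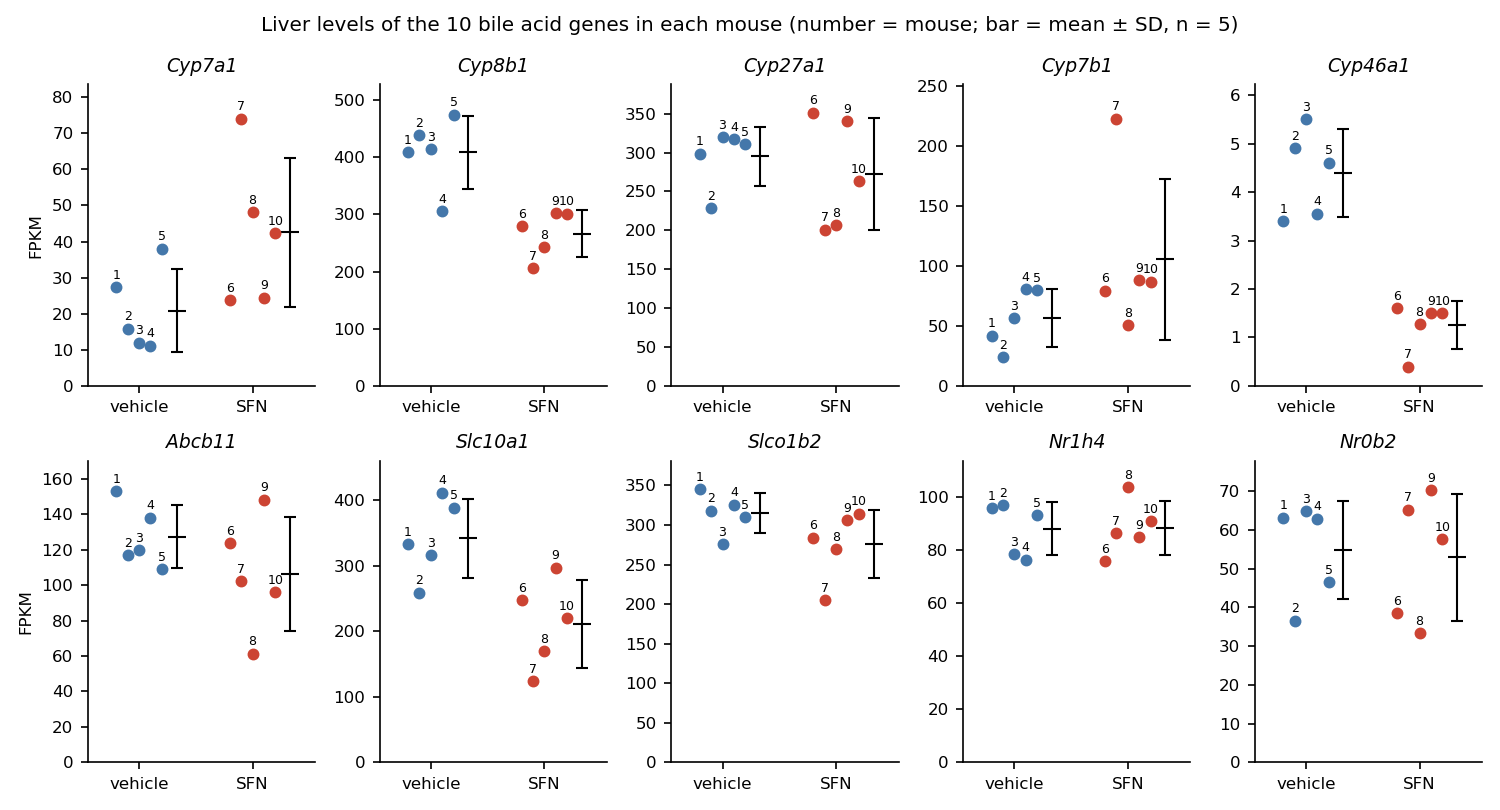
Liver FPKM (linear axis from 0) of the 10 genes in each mouse, numbered 1 to 10, with the mean ± SD of 5 vehicle-treated (blue) and 5 SFN-treated (red) mice beside the points. The groups are apart for Cyp8b1 and Cyp46a1 and overlap for the other 8, and mouse 7 stands high for Cyp7a1 and Cyp7b1.

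Cyp7a1, the rate-limiting enzyme of the classic pathway, measured 27.3, 15.8, 12.0, 11.1 and 38.0 FPKM in vehicle-treated mice 1 to 5 and 23.7, 74.1, 48.1, 24.5 and 42.4 FPKM in SFN-treated mice 6 to 10. Mice 7, 8 and 10 were above every vehicle-treated mouse, while mice 6 and 9 were inside the vehicle range. The mean was 20.8 ± 11.6 FPKM with vehicle and 42.6 ± 20.7 FPKM with SFN (SD, n = 5 each). The log2 fold change was 1.06 (standard error 0.40, 95% interval 0.17 to 1.95) with an adjusted p of 0.105 in limma, and an exact two-sided permutation test of the 10 mice gave p = 0.0714. Within the vehicle group Cyp7a1 had the widest range of the 10 members, 3.41-fold. Without mouse 7 the log2 fold change was 0.83 (adjusted p = 0.207). Over the alternatives fitted on liver libraries alone the adjusted p ranged from 0.064 to 0.207, and it passed only in the fit of all 60 libraries, in which the 50 libraries from other tissues had 0 reads of Cyp7a1 and so no spread.

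Cyp8b1, the sterol hydroxylase required for cholic acid, measured 409, 439, 414, 305 and 475 FPKM in mice 1 to 5 and 280, 206, 243, 302 and 301 FPKM in mice 6 to 10. Every SFN-treated mouse was below every vehicle-treated mouse, but mice 9 and 10 were within a few FPKM of mouse 4. The mean fell from 408 ± 63.3 to 266 ± 41.4 FPKM, a log2 fold change of −0.62 (standard error 0.14, 95% interval −0.92 to −0.31) with an adjusted p of 0.0200 in limma. The exact permutation test gave p = 0.00794, the smallest that 5 against 5 mice allow. Without mouse 7 the adjusted p was 0.037, but without vehicle mouse 5, the highest animal, it was 0.0519, and over all alternatives it ranged from 0.000205 to 0.0556.

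Since both enzymes act on the classic pathway, their levels were set against each other within each mouse, a ratio chosen after the values were seen. Cyp8b1 FPKM divided by Cyp7a1 FPKM was 15.0, 27.7, 34.6, 27.4 and 12.5 in mice 1 to 5 and 11.8, 2.78, 5.04, 12.3 and 7.11 in mice 6 to 10. The lowest vehicle value, in mouse 5, was close to the highest SFN value, in mouse 9. The median was 27.4 with vehicle and 7.11 with SFN, and no test was made.

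Cyp27a1, the mitochondrial enzyme that starts the alternative pathway, measured 299, 228, 320, 317 and 311 FPKM in mice 1 to 5 and 351, 201, 207, 340 and 263 FPKM in mice 6 to 10. The SFN-treated mice spread over a wider range that included all vehicle values. The log2 fold change was −0.14 (95% interval −0.53 to 0.24, adjusted p = 0.622), and without mouse 7 it was −0.04 (adjusted p = 0.898).

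Cyp7b1, the oxysterol hydroxylase of the alternative pathway, measured 41.9, 24.0, 56.2, 80.7 and 79.6 FPKM in mice 1 to 5 and 79.3, 223, 50.5, 88.4 and 87.0 FPKM in mice 6 to 10. Mouse 7 was far above the rest and mice 6, 9 and 10 lay close to or above the top of the vehicle range. The log2 fold change was 0.85 (standard error 0.42, 95% interval −0.07 to 1.76, adjusted p = 0.200), and without mouse 7 it was 0.53 (adjusted p = 0.365).

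Cyp46a1, the cholesterol hydroxylase known for removing cholesterol from neurons, was the least abundant member in liver. It measured 3.40, 4.91, 5.50, 3.55 and 4.60 FPKM in mice 1 to 5 and 1.61, 0.396, 1.27, 1.506 and 1.496 FPKM in mice 6 to 10. These values rest on 134 to 234 reads per vehicle library and 15 to 72 reads per SFN library. The groups were far apart, and mouse 7 was lowest. The mean fell from 4.39 ± 0.90 to 1.26 ± 0.50 FPKM, a log2 fold change of −1.83 (standard error 0.32, 95% interval −2.53 to −1.12) with an adjusted p of 0.00859 in limma and an exact permutation p of 0.00794. It passed in all 19 settings tried, this one included, with adjusted p from 5.98e-09 to 0.0261, and without mouse 7 the log2 fold change was −1.496 (adjusted p = 0.00165). Groups did not overlap for 2 of the 10 members, Cyp8b1 and Cyp46a1, against 12.1% of all liver genes.

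Of the transporters, Slc10a1, the sodium-dependent carrier that returns bile acids to the hepatocyte, measured 333, 259, 316, 411 and 388 FPKM in mice 1 to 5 and 247, 124, 170, 297 and 220 FPKM in mice 6 to 10. Only mouse 9 reached into the vehicle range, above mouse 2. The mean was 341 ± 60.5 FPKM with vehicle and 212 ± 67.1 FPKM with SFN, a log2 fold change of −0.73 (standard error 0.22, 95% interval −1.22 to −0.25). Its adjusted p was 0.0520 in limma and its exact permutation p 0.0159. It passed in 5 alternatives, among them edgeR (adjusted p = 0.0422) and DESeq2 (adjusted p = 0.00737) on recovered reads and the fit without mouse 9 (adjusted p = 0.0212), and over the others the adjusted p reached 0.114. Without mouse 7 the log2 fold change was −0.56 (adjusted p = 0.0813).

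Abcb11, the bile salt export pump of the canalicular membrane, measured 153, 117, 120, 138 and 109 FPKM in mice 1 to 5 and 124, 102, 61.3, 148 and 96.0 FPKM in mice 6 to 10. Mouse 8 was lowest and mouse 9 among the highest of the 10 animals, and the log2 fold change was −0.31 (95% interval −0.76 to 0.14, adjusted p = 0.337). Slco1b2, a sodium-independent uptake carrier, measured 346, 318, 276, 326 and 310 FPKM in mice 1 to 5 and 284, 205, 269, 306 and 314 FPKM in mice 6 to 10. Apart from mouse 7 the animals of both groups lay between 269 and 346 FPKM, and the log2 fold change was −0.20 (95% interval −0.46 to 0.05, adjusted p = 0.268), or −0.10 without mouse 7 (adjusted p = 0.472).

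Nr1h4 (FXR), the bile acid receptor, measured 95.7, 97.0, 78.4, 76.4 and 93.1 FPKM in mice 1 to 5 and 75.9, 86.3, 104, 84.8 and 91.0 FPKM in mice 6 to 10. Its means of 88.1 ± 9.93 and 88.4 ± 10.2 FPKM gave a log2 fold change of 0.00 (95% interval −0.21 to 0.22, adjusted p = 0.983). Nr0b2 (SHP), the repressor that FXR induces, measured 63.1, 36.5, 64.7, 62.9 and 46.4 FPKM in mice 1 to 5 and 38.4, 65.1, 33.2, 70.1 and 57.5 FPKM in mice 6 to 10. High and low animals were found in both groups, and the log2 fold change was −0.07 (95% interval −0.60 to 0.45, adjusted p = 0.864). Neither interval reaches a doubling or a halving.

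**Figure D2:**
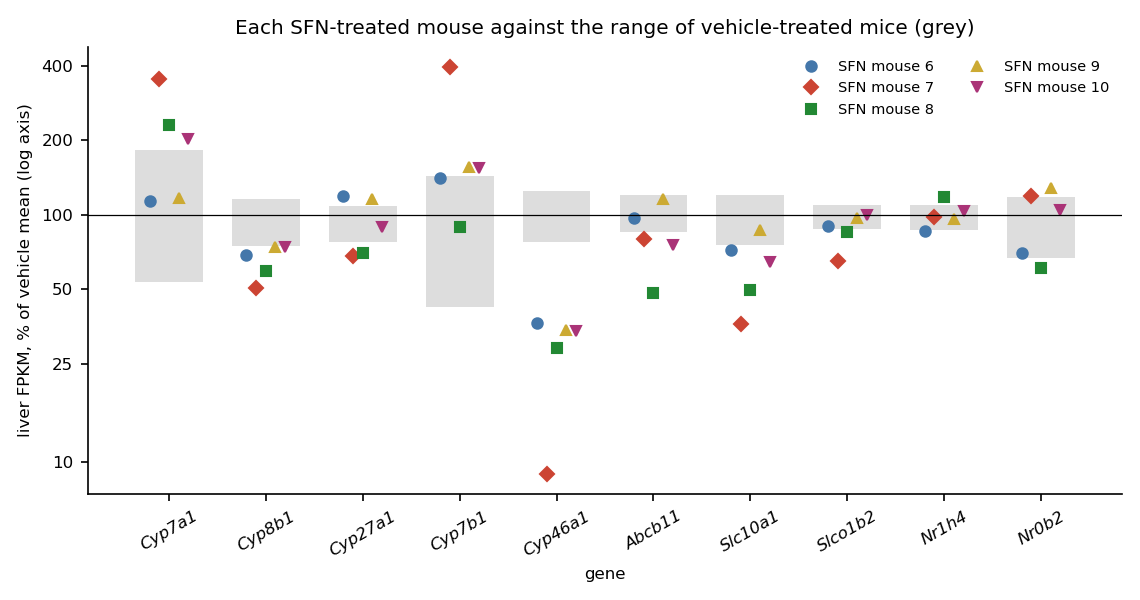
Liver FPKM of each SFN-treated mouse as a percentage of the vehicle mean (log axis), by gene, with the range of the 5 vehicle-treated mice as a grey band. Mouse 7 (red diamonds) was at 355% for Cyp7a1, 394% for Cyp7b1, 50.5% for Cyp8b1, 36.4% for Slc10a1 and 9.01% for Cyp46a1, and at 98.0% for Nr1h4.

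The SFN-treated animals did not depart from vehicle to the same degree. Mouse 7 had the highest Cyp7a1 and Cyp7b1 and the lowest Cyp8b1, Cyp27a1, Cyp46a1, Slc10a1 and Slco1b2 of the 10 animals, and mouse 8 had the lowest Abcb11 and Nr0b2. Both receptors were within or near the vehicle range in mouse 7. Leaving out mouse 7 left 2 members called lower and 0 higher, and the share of all genes called without it is not given here.

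Other transcripts differed between the same livers. Orm1, an acute-phase protein made by hepatocytes, was 869 to 1296 FPKM with vehicle and 4513 to 9117 FPKM with SFN, with mouse 7 highest. Dbp, a transcription factor with a daily rhythm, was 13.4 to 53.9 FPKM with vehicle and 2.89 to 8.82 FPKM with SFN. Of the hepatocyte markers 0 of 10 were called, where 6.89% of all liver genes were called higher and 6.19% lower. Their summed level was 65193 to 73238 FPKM with vehicle (median 67153) and 46079 to 73188 FPKM with SFN (median 49824). The SFN median was below the lowest vehicle value. Alb was the largest part of this sum, with a mean of 39382 FPKM with vehicle and 30635 FPKM with SFN. The log2 fold change was positive for 4 of the hepatocyte markers and negative for 6. Of the stellate cell markers 4 of 7 were called lower, with a summed level of 139 to 182 FPKM against 74.6 to 124 FPKM. Of 6 cholangiocyte markers kept 2, Spp1 and Sox9, were called higher and 0 lower, while Krt19 was 1.51 to 3.27 FPKM with vehicle and 1.497 to 3.78 FPKM with SFN. The log2 fold change was positive for 5 of them and negative for 1, Epcam (−0.86, adjusted p = 0.143 in limma). Of the macrophage markers 0 of 10 were called. In whole tissue fewer cells of a type and less RNA per cell cannot be told apart, and the part of these transcripts and cells in the member results was not tested. Of 8 neuron markers, looked at because Cyp46a1 is high in neurons, 2 (Syt1 and Agrp) were kept in liver and 0 called, and the summed level was 1.65 to 3.31 FPKM with vehicle and 1.17 to 2.93 FPKM with SFN. Syt1 was 1.04 to 1.40 FPKM with vehicle and 0.447 to 1.99 FPKM with SFN, Snap25 was at most 0.0203 FPKM, and Oxt was at 0 in every liver library.

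The other genes of bile acid metabolism moved in both directions in liver. Of 49 listed genes 42 passed the filter, and 5 were called higher and 9 lower, where 6.89% of all liver genes were called higher and 6.19% lower, with a median log2 fold change of −0.08 against −0.02 over all genes. Among 14 synthesis and conjugation genes kept, 2 were higher and 5 lower. Among 14 transport genes 1 was higher and 4 lower, and among 14 regulators 2 were higher and 0 lower.

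**Figure D3:**
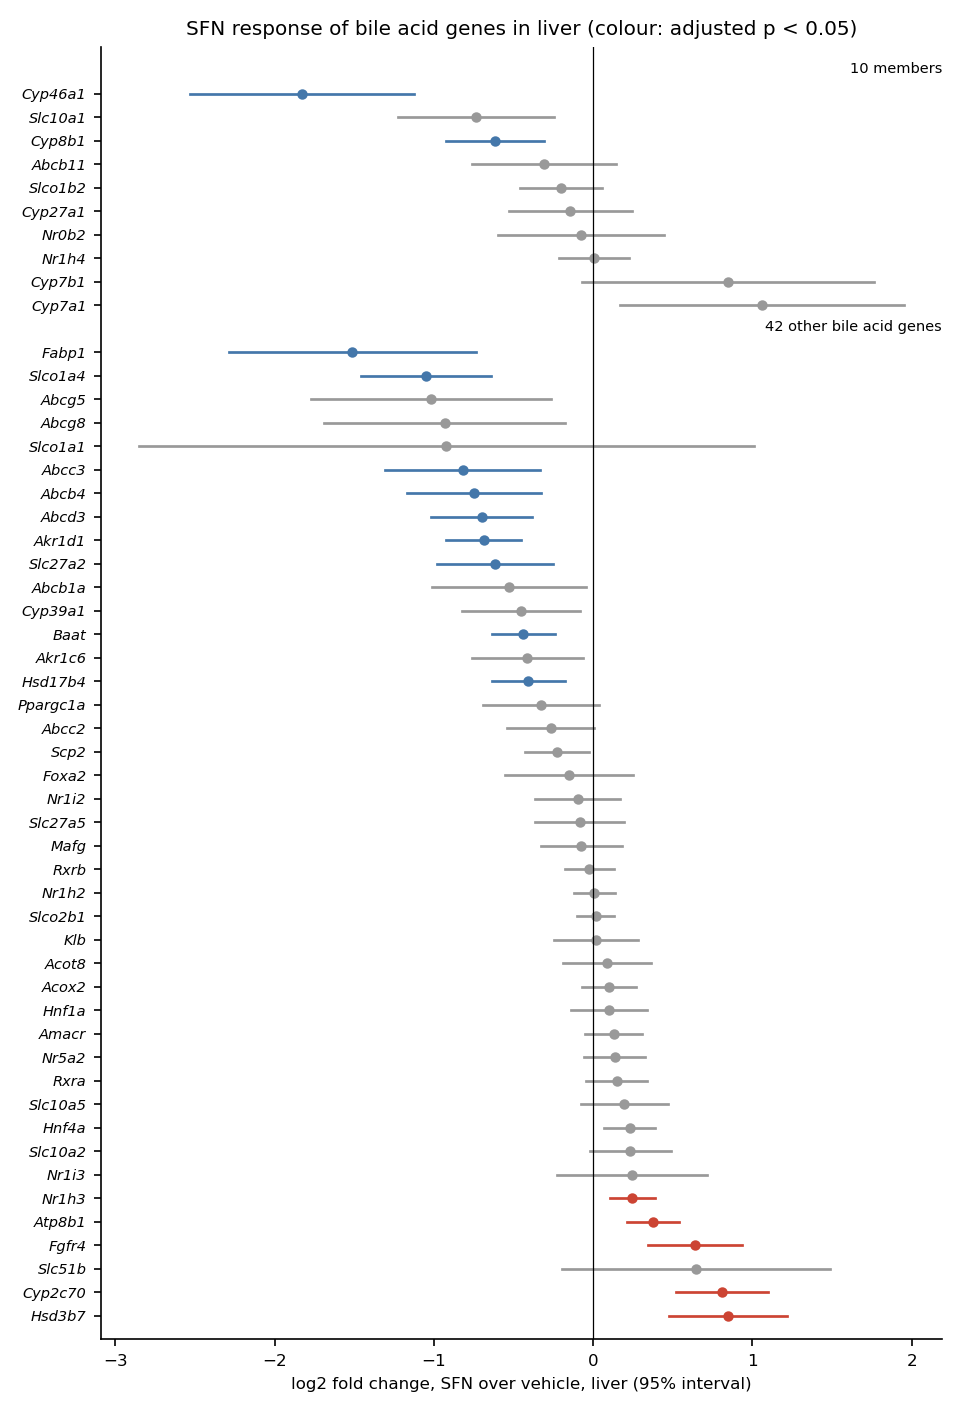
Log2 fold change of SFN over vehicle in liver with its 95% interval for the 10 members (top) and the 42 other bile acid genes kept (bottom), 5 mice per group. Red marks the 5 genes called higher and blue the 2 members and 9 other genes called lower at an adjusted p under 0.05. Grey genes did not pass.

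Of the synthesis genes, Cyp2c70, which makes the muricholic acids of mice, rose from 98.5 to 156 FPKM across vehicle-treated mice to 171 to 227 FPKM across SFN-treated mice (log2 fold change 0.81, standard error 0.13, adjusted p = 0.00641). Hsd3b7, which acts after the first hydroxylation, rose from 1.33 ± 0.38 to 2.43 ± 0.30 FPKM (log2 fold change 0.85, adjusted p = 0.0130). Akr1d1, the reductase of the sterol ring, fell from 80.9 ± 9.31 to 50.4 ± 6.90 FPKM (log2 fold change −0.69, standard error 0.11, adjusted p = 0.00533). These 3 genes passed in every alternative.

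Genes of the peroxisomal and conjugation steps were lower or did not pass. Abcd3, a peroxisomal importer of side chain intermediates, fell from 133 ± 12.9 to 83.1 ± 17.5 FPKM (log2 fold change −0.70, adjusted p = 0.0138). Baat, which joins bile acids to taurine or glycine, fell from 206 ± 13.5 to 153 ± 19.2 FPKM (log2 fold change −0.44, adjusted p = 0.0138). Hsd17b4, a peroxisomal oxidation enzyme, fell from 266 ± 5.43 to 203 ± 31.8 FPKM (adjusted p = 0.0290), and Slc27a2, an acyl-CoA synthetase, from 470 ± 37.3 to 315 ± 80.3 FPKM (adjusted p = 0.0355). The abundant Scp2, Akr1c6, Amacr, Acox2 and Slc27a5 did not pass, with log2 fold changes of −0.23, −0.41, 0.13, 0.10 and −0.08 and adjusted p of 0.122, 0.107, 0.320, 0.420 and 0.694.

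Of the transport genes, Slco1a4, a sinusoidal uptake carrier, fell from 9.78 ± 0.85 to 4.83 ± 1.31 FPKM (log2 fold change −1.05, standard error 0.18, adjusted p = 0.00869). Fabp1, the abundant fatty acid binding protein of hepatocytes, was 9121 to 12167 FPKM with vehicle and 1663 to 6927 FPKM with SFN (log2 fold change −1.51, standard error 0.35, adjusted p = 0.0216). Abcb4, which moves phospholipid into bile, fell from 57.3 ± 4.29 to 35.4 ± 10.9 FPKM (adjusted p = 0.0293), and Abcc3, an export pump to the blood, from 83.8 ± 6.16 to 49.8 ± 15.3 FPKM (adjusted p = 0.0355). Atp8b1, a phospholipid flippase of the canalicular membrane, rose from 8.18 ± 0.60 to 10.6 ± 0.85 FPKM (log2 fold change 0.37, adjusted p = 0.0126). Abcc2, the canalicular conjugate pump, had a log2 fold change of −0.27 (adjusted p = 0.176).

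Of the regulators, Fgfr4, the hepatocyte receptor for the gut hormone Fgf15, rose from 23.7 ± 3.30 to 37.1 ± 6.85 FPKM (log2 fold change 0.64, standard error 0.13, adjusted p = 0.0148). Nr1h3 (LXR alpha), the oxysterol receptor, rose from 62.6 ± 2.51 to 74.4 ± 6.17 FPKM (log2 fold change 0.25, adjusted p = 0.0330). Hnf4a was at 149 ± 12.4 and 175 ± 10.7 FPKM and did not pass (adjusted p = 0.0599), nor did Rxra, the partner of FXR (log2 fold change 0.15, adjusted p = 0.277). Leaving out single mice ended the calls of Hsd17b4 (mice 1, 2, 3, 4, 5, 8 or 10), Slc27a2 (mice 1, 2, 3, 4, 5, 7, 8 or 10), Abcb4 (mice 1, 2, 4, 5, 7, 8 or 10), Abcc3 (mice 1, 2, 3, 4, 5 or 8), Fabp1 (mice 5, 8 or 10) and Nr1h3 (mice 2, 3, 4, 5, 7, 8 or 10). The highest adjusted p in these limma fits were 0.0637, 0.0809, 0.0653, 0.0724, 0.0553 and 0.0733, in that order. Of the 42 other bile acid genes, 4 were then called lower without mouse 5 or 8. This number was 5 without mouse 1, 2, 4 or 10, and 6 without mouse 3. The shares of all genes called in these fits are not given here.

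Across tissues, 9 of the 10 members were highest in liver and Cyp46a1 was highest in the hypothalamus. Cyp7a1 had 0 reads in all 50 libraries outside liver, where 3 reads would be at most 0.0711 FPKM, so its vehicle mean in liver was at least 293-fold higher (per-library floor, counting error only). Abcb11, Slc10a1, Slco1b2 and Nr0b2 had vehicle means of at most 0.153 FPKM in the other tissues, and Cyp8b1 of at most 0.184 FPKM. Nr1h4 was at 0.643 ± 0.264 FPKM in eWAT, next after liver, and overlapped with iWAT at 0.310 ± 0.209 FPKM.

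**Figure D4:**
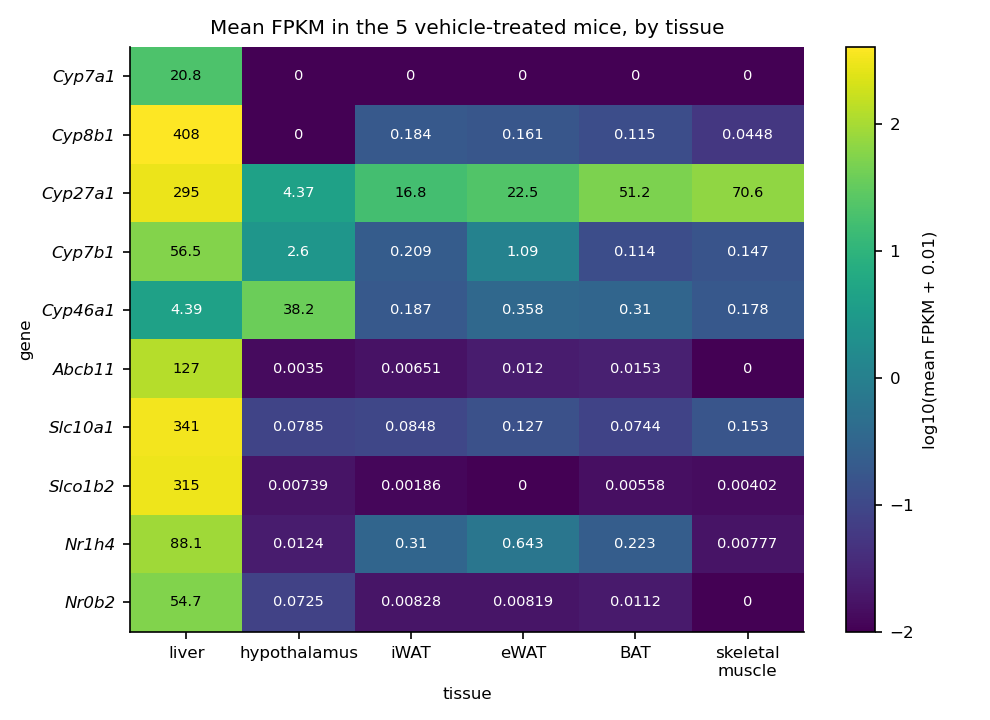
Mean FPKM of the 10 members (rows) in the 5 vehicle-treated mice of each tissue (columns), with colour on a log10 scale. Most members are near 0 outside liver, Cyp27a1 is present in every tissue, from 4.37 FPKM in the hypothalamus to 295 FPKM in liver, and Cyp46a1 is highest in the hypothalamus at 38.2 FPKM.

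Cyp27a1 was the member expressed throughout. Its vehicle means ran from 295 ± 38.2 FPKM in liver through muscle (70.6 ± 7.56), BAT (51.2 ± 4.35), eWAT (22.5 ± 3.22) and iWAT (16.8 ± 1.21) to the hypothalamus (4.37 ± 0.89), and of the neighbours in this order only eWAT and iWAT overlapped. In BAT the level stands beside Acta1 values of 0.314 to 1453 FPKM, and the part of muscle transcripts was not tested. Cyp7b1 was at 56.5 ± 24.4 FPKM in liver, 2.60 ± 0.23 FPKM in the hypothalamus and 1.09 ± 0.34 FPKM in eWAT, with no overlap between these neighbours, and 0.209 FPKM or less elsewhere. Cyp46a1 was at 38.2 ± 2.83 FPKM in the hypothalamus and 4.39 ± 0.90 FPKM in liver, without overlap, and at 0.358 FPKM or less in the fat depots and muscle.

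Outside liver no member passed the test of SFN against vehicle. The filter kept 3 members in the hypothalamus, 1 in iWAT, 3 in eWAT, 1 in BAT and 1 in muscle. By limma, edgeR and DESeq2 0 of these were called. With limma, 0% of all genes were called in the hypothalamus, 0.00707% in iWAT, 0.209% in eWAT, 0.0075% in BAT and 0% in muscle. The shares with edgeR and DESeq2 are not given here. At an unadjusted p under 0.05 there was 1 member, Cyp27a1, in each of the hypothalamus, eWAT and BAT, against 1011 of 15522, 1857 of 13908 and 2053 of 13327 genes in these tissues. In eWAT Cyp27a1 measured 17.4, 21.7, 24.8, 25.4 and 23.5 FPKM in mice 1 to 5 and 30.3, 25.1, 28.9, 30.7 and 28.9 FPKM in mice 6 to 10, where only mouse 7 lay within the vehicle range (log2 fold change 0.36, 95% interval 0.12 to 0.60, adjusted p = 0.178). In the hypothalamus its mean was 4.37 ± 0.89 FPKM with vehicle and 3.09 ± 0.31 FPKM with SFN (log2 fold change −0.47, adjusted p = 0.651), and in BAT 51.2 ± 4.35 and 45.2 ± 3.06 FPKM (log2 fold change −0.18, adjusted p = 0.278). Its log2 fold change was −0.02 in iWAT (adjusted p = 0.956), where the sign changed with the scaling, and 0.09 in muscle (adjusted p = 0.765). Cyp7b1 had log2 fold changes of 0.02 in the hypothalamus and 0.36 in eWAT, and Nr1h4 of −0.01 in eWAT (adjusted p = 0.967, 0.555 and 0.989).

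Whether the liver response differed from that of another tissue was tested directly, as liver minus the other tissue, for the members kept in both. Cyp46a1 was the single call among 9 such differences. In the hypothalamus it measured 37.8, 42.4, 34.4, 38.0 and 38.5 FPKM in mice 1 to 5 and 39.5, 46.2, 32.5, 38.5 and 32.8 FPKM in mice 6 to 10, so the groups overlapped fully (log2 fold change −0.02, 95% interval −0.22 to 0.18). Mouse 7, lowest in liver, was highest there. The difference in log2 fold change between liver and hypothalamus was −1.81 (standard error 0.35, 95% interval −2.53 to −1.08) with an adjusted p of 0.00504 in limma, where 10.3% of all genes were called. That fit took the liver and the hypothalamus of a mouse as independent. With the mouse as a block the standard error was 0.39 and the adjusted p 0.037 in limma. The other 8 differences did not pass, where 10.3%, 3.58%, 4.10%, 5.50% and 6.97% of genes were called against hypothalamus, iWAT, eWAT, BAT and muscle. The nearest was Cyp27a1 between liver and eWAT (difference −0.50, 95% interval −0.95 to −0.06, adjusted p = 0.182).

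The genes most like each member over the 60 libraries, by Pearson's r of log2(FPKM + 0.1), are given as a description, since the libraries share 6 tissues and r follows the tissue in which a gene is high. Cyp46a1 was most like Cdh18, Bex4 and Caln1 (r = 0.977, 0.972 and 0.971). Cyp27a1 was most like Mfsd4b3, Stbd1 and Lactb (r = 0.974, 0.969 and 0.966), and Cyp7b1 most like Igfbp2, Il1rap and Aldh1b1 (r = 0.976, 0.9747 and 0.974). Cyp7a1 was most like Gm7463, Urad and Foxa3 (r of 0.997 each), Cyp8b1 like Ces1g, G6pc and C9 (0.993, 0.993 and 0.992), and Slc10a1 like Cyp2c50, Uroc1 and Ugt2b36 (0.994, 0.993 and 0.993). Abcb11 was most like Ugt2b34, Ugt3a1 and Cyp2a12 (0.999 each), Slco1b2 like Akr1c20, Slc17a2 and Ugt2b34 (0.999 each), Nr1h4 like Ugt3a2, Tspan31 and Asgr2 (0.989, 0.988 and 0.984), and Nr0b2 like Afm, Igsf5 and F11 (0.992, 0.991 and 0.991).

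On GRCm38 (GENCODE annotation) the 10 members lie on 8 chromosomes. The genes are Cyp7a1 (chr4:6265612-6275633), Nr0b2 (chr4:133553376-133556536), Cyp8b1 (chr9:121914356-121916305), Cyp27a1 (chr1:74713574-74737892), Cyp7b1 (chr3:18071950-18243338), Cyp46a1 (chr12:108334381-108362234), Slc10a1 (chr12:80953183-80968705), Abcb11 (chr2:69238282-69342616), Slco1b2 (chr6:141629518-141686646) and Nr1h4 (chr10:89454234-89533585).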

How the data were processed

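Poly(A) libraries from total RNA of 6 tissues of 10 mice were sequenced, and the submitters' processing notes name the builds mm10 and GRCm38. For the aligner, the counting tool and the statistical test the entry is: not given in the sources used here. FPKM values of all genes were deposited by the authors, scaled by gene length and 1 factor per library. The authors' comparison tables hold read counts per gene, and other columns deposited by the authors are gene length, scaled signal, fold changes and p-values of their own comparison, of which none but counts and length was used. Columns belonging to no sample numbered 0.

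Reads of the other genes were recovered from FPKM, length and the library factor. Of 38197 genes above 0, 98.58% came to a whole number of reads (tolerance 0.01), and of 146080 known counts 0 differed. The other 544 genes have no recovered reads. They are left out of the recovered depth and of the edgeR and DESeq2 fits. IDs were matched to symbols for 54409 of 54532 genes.

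Each tissue was fitted alone, with genes of a mean of at least 0.5 FPKM, as log2(FPKM + 0.1) in limma 3.58.1 (R 4.3.3) with an intensity trend, two-sided. P-values were adjusted by Benjamini-Hochberg over every gene kept in the tissue, with a threshold of 0.05. Fold changes on this scale understate the change of low genes. Single members in liver were also tested by exact permutation of the 10 mice. Differences between tissues were interaction terms. The mouse number pairs the tissues, because all come from the same animals, and a fit with the mouse as a block was the alternative. Other alternatives were a pseudocount of 1, no filter, a minimum of 1 FPKM, median ratio scaling, quantile normalization, edgeR 4.0.16 and DESeq2 1.42.0 on recovered reads, all 60 libraries in 1 fit, and each mouse left out. The scripts were tested on simulated data.

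The members and gene lists were chosen with earlier results of these data known. The genes named are all members, listed bile acid genes that passed in liver or had a mean of at least 50 FPKM there, defining markers, and for each member the 3 genes of highest correlation. Spp1, Sox9, Krt19, Epcam, Syt1, Agrp and Oxt were named after their values were seen. RNA levels do not measure protein or enzyme activity.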

Additional observations from a re-analysis of the deposited data

Results flagged for a closer look

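In 4 of 38 groups of 5 mice 1 animal lay far from the others for a member. For independent groups chance alone gives about 1 group in 20. These groups reuse the same mice over genes and tissues, so the count cannot be set against that rate. SFN-treated mouse 7 was such an animal 3 times. Its liver Cyp7b1 was 222.8 FPKM, with the other SFN-treated mice between 50.5 and 88.4. Its liver Cyp46a1 was 0.396 FPKM, with the others between 1.27 and 1.61. Its BAT Cyp27a1 was 39.95 FPKM, with the others between 45.5 and 47.5. Vehicle-treated mouse 2 had a liver Cyp27a1 of 228.3 FPKM, with the others between 299 and 320.

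Of 9 differences in response between liver and another tissue 1 passed the test. The log2 fold change of Cyp46a1 in liver minus that in the hypothalamus was −1.81 (adjusted p = 0.00504 in limma, or 0.037 with the mouse as a block). Its liver level was lower in 5 of 5 SFN-treated mice than in any vehicle-treated mouse.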

How the results depend on the processing

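Cyp46a1 in liver kept its direction and its call in all alternatives. With all 60 libraries in 1 fit, 2 members were called higher (Cyp7a1, adjusted p = 3.9e-05, and Cyp7b1, adjusted p = 0.0463) and 1 lower (Cyp46a1), while Cyp8b1 (0.0556), Baat (0.178), Atp8b1 (0.0926), Nr1h3 (0.118) and Fgfr4 (0.0643) lost their calls. Cyp7a1 had 0 reads in the 50 libraries outside liver, so the pooled spread of that fit is small by construction and its adjusted p there says nothing of the spread in liver. Cyp7b1 passed in 1 of 19 settings, this fit. Its spread there is also pooled over all tissues, so its adjusted p does not describe liver alone. With no filter on low values 4 other bile acid genes were called lower. Leaving out single mice gave 1 to 3 members called lower (1 without mouse 5, 3 without mouse 9, when Slc10a1 passed). For the other bile acid genes it gave 4 to 11 called lower. The shares of all genes called in these alternatives are not given here. A change in these counts was therefore not set against the change over all genes. The sign turned for values that never passed: Cyp27a1 in iWAT had log2 fold changes of 0.0016 with median ratio scaling, 0.0375 with quantile normalization, 0.0157 with edgeR and 0.0126 with DESeq2. With single mice left out the log2 fold change ranged from −0.0822 to 0.0769 for Cyp27a1 in iWAT, −0.0556 to 0.0570 for Nr1h4 and −0.2117 to 0.0772 for Nr0b2 in liver, −0.0195 to 0.0664 for Cyp7b1 and −0.0956 to 0.031 for Cyp46a1 in the hypothalamus, and −0.2400 to 0.1194 for Nr1h4 in eWAT. The causes were not tested.

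With the mouse as a replicate block, which pairs the tissues of an animal, 1 member differed in response between liver and hypothalamus (Cyp46a1, adjusted p = 0.037 in limma). Between liver and each other tissue 0 differed, and no call changed. The shares of all genes called in the block fits are not given here. Within a tissue vehicle and SFN were different mice, so no pairing applies there. The 5 mice per group and, for Cyp46a1 in liver, 15 to 234 reads limit precision.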
